A study of Homo sapiens with 8 samples.

Results

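Pharyngeal foregut endoderm (hPFE) was compared with the definitive endoderm (hDE) from which the differentiation culture sets out towards the pharynx. Members were chosen by label: 2 hPFE and 2 hDE libraries, which are 4 of the 8 in the series, and every gene row entered. All 8 libraries are ribosomal-RNA-depleted, strand-specific total RNA from H1, an established human embryonic stem cell line, sampled undifferentiated (hESC) and at 3 steps of a directed differentiation (hDE, anterior foregut endoderm or hAFE, hPFE). No allele, transgene, time point or dose is given, and all groups share the 1 line, so that another line is not covered. The hDE libraries are marked in the labels as re-analysed and the hPFE libraries are not, which means that differences of stage and differences of library origin cannot be told apart in this comparison. The 2 hAFE libraries share the hPFE origin, and for that reason their values stand beside those of hPFE. Whether replicates are separate cultures is not given, and p-values therefore reflect a spread that may be technical.

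Definitive endoderm forms when epiblast cells pass through the primitive streak under Nodal signalling, and it later lines the gut tube. Its most anterior portion, the foregut, takes up SOX2 and meets retinoic acid, hedgehog, FGF, BMP and WNT signals that pattern it along the body axis. The pharyngeal endoderm then folds into pouches, marked by genes such as PAX1, PAX9, TBX1 and ISL1, from which the thymus and parathyroid arise, while the thyroid forms from the pharyngeal floor.

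The question of the comparison is which genes separate the pharyngeal stage from definitive endoderm. Expected counts totalled 12901077 and 16167869 in hDE and 15569507 and 12893496 in hPFE. Levels are CPM, the counts of a library scaled to a common total after TMM normalisation, and a gene rose or fell when its adjusted p from edgeR's quasi-likelihood test, over all genes tested, was below 0.05. Of 17446 genes tested, 5867 (33.6%) passed, with 2904 (16.6%) higher and 2963 (17%) lower in hPFE. At 4-fold or more, 1334 (7.65%) were higher and 877 (5.03%) lower. Both hPFE libraries lay above both hDE libraries for 32.4% of all genes tested, called or not, and below both for 35.6%. Below, a percent of a gene list is of all its members, tested or not, while a percent of all genes is of the genes tested. Where members were too low to be tested, the percent of the tested members is at least as high as the one given. The replicates were closer in hDE than in hPFE: the log2 difference between libraries had an SD of 0.27 in hDE and 0.56 in hPFE over 9852 genes. There were 50 such genes over 2-fold apart in hDE and 523 in hPFE. Without hDE replicate 1 the number that passed was 2906, and without hDE replicate 2 it was 2630. On the deposited TPM values without further scaling, log2(TPM + 1), the median of all genes shifted up by 0.68 and 93.3% of 10284 calls were higher; with TMM scaling of the same values 48.1% of 4940 calls were higher, beside 49.5% in the count fit.

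**Figure D1:**
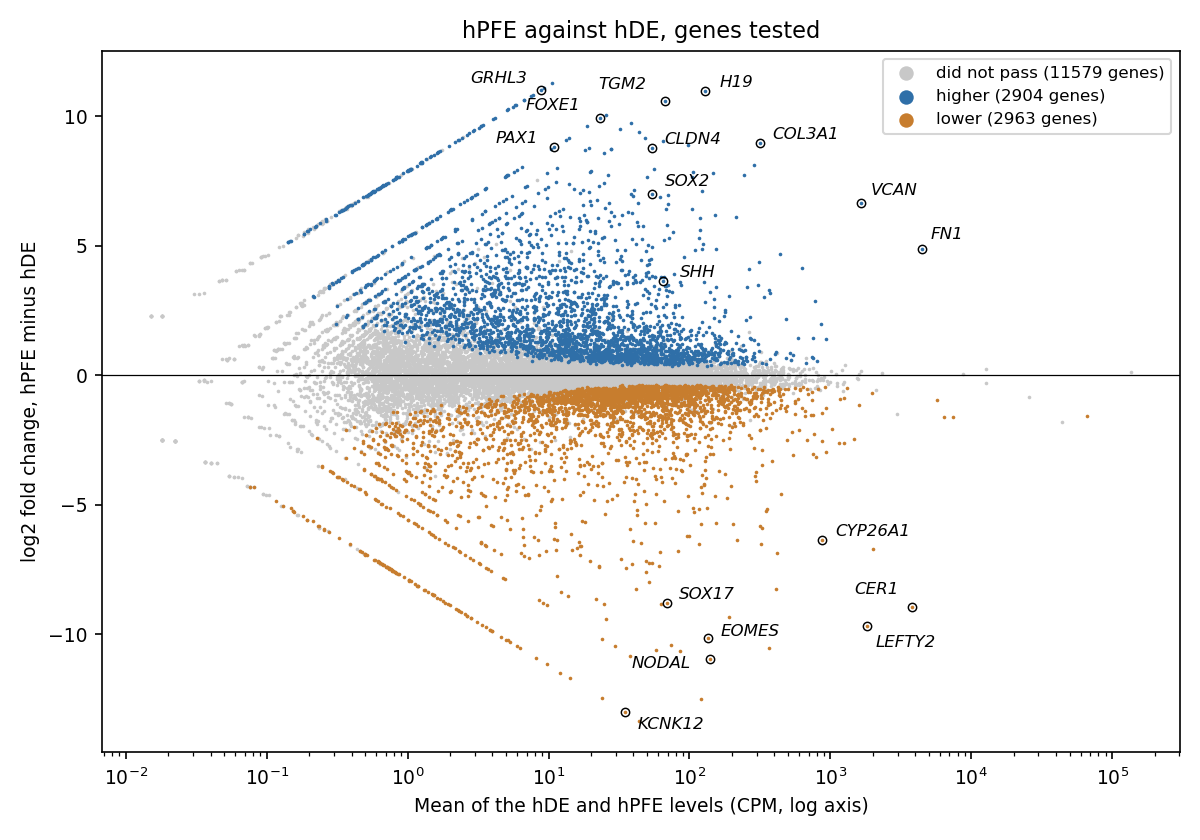
Log2 fold change of hPFE over hDE against the mean level of each gene tested (CPM, log axis), 1 point a gene, with 18 genes circled and named. The 2904 higher and 2963 lower genes spread over most of the range of levels, and the straight bands at the left are genes with few counts in 1 stage.

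The endoderm landmarks fell steeply, with FOXA2 as the exception. SOX17 (chromosome 8, 54457935 to 54460888), the transcription factor that marks definitive endoderm, was at 126 and 149 CPM in hDE and at 0.182 and 0.433 CPM in hPFE (log2 fold change -8.81, SE 0.41, adjusted p = 1.82e-05). CER1 (chromosome 9, 14719724 to 14722717), a secreted Nodal, BMP and WNT antagonist, was at 7219 and 7995 CPM in hDE and at 21.1 and 9.74 in hPFE (log2 fold change -8.94, SE 0.54, adjusted p = 4.56e-05). EOMES (chromosome 3, 27715949 to 27722711), a T-box factor of the streak and early endoderm, went from 277 and 263 CPM to 0.364 and 0.0722 (log2 fold change -10.15, SE 0.47, adjusted p = 1.82e-05). For each of these genes the lower hDE library lay far above the higher hPFE library. CXCR4 (chromosome 2, 136114349 to 136118165), a chemokine receptor by which endoderm cells are often sorted, fell from 674 and 606 CPM to 14.1 and 7.36 (log2 fold change -5.89, SE 0.62, adjusted p = 0.000486). The forkhead gene FOXA2 (chromosome 20, 22581005 to 22585455), carried by foregut endoderm as well, was at 27.6 and 27.7 CPM in hDE and 22.9 and 12.8 in hPFE and did not pass (log2 fold change -0.63, SE 0.41, adjusted p = 0.269).

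Foregut and pharynx landmarks came up in their place, to very different levels. SOX2 (chromosome 3, 181711924 to 181714436), a foregut and stem cell factor, was at 0.623 and 1.01 CPM in hDE and at 120 and 95.9 in hPFE (log2 fold change 7.0, SE 0.59, adjusted p = 0.000179). PAX1 (chromosome 20, 21705659 to 21718486), a paired-box gene of the pouches, had 1 count in both hDE libraries together and stood at 26.5 and 17.3 CPM in hPFE, a ratio of 558 (95% interval from counting error 99.8 to 22076, adjusted p = 0.00229). PAX9 (chromosome 14, 36657568 to 36679715), its close relative, was already at 5.52 and 2.10 CPM in hDE and reached 95.7 and 28.6 (log2 fold change 4.05, SE 0.64, adjusted p = 0.00277). ISL1 (chromosome 5, 51383391 to 51394738), a LIM homeobox factor, was at 0.356 and 0.145 CPM in hDE and 71.1 and 34.3 in hPFE (log2 fold change 7.73, SE 1.21, adjusted p = 0.0026). The groups did not overlap for any of these genes. Of these 4 genes, PAX1 was the one that passed in hPFE against hAFE: its hAFE libraries held 0 and 0.658 CPM (adjusted p = 0.0161), whereas SOX2 was at 158 and 57.2 CPM in hAFE, PAX9 at 25.4 and 21.8, and ISL1 at 5.22 and 39.8, and those 3 did not pass against hAFE.

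The TBX1 and HOXA3 landmarks rested on few counts. TBX1 (chromosome 22, 19756703 to 19783593), the T-box factor of pharyngeal segmentation, had no counts in hDE and 1.21 and 1.95 CPM in hPFE, at least 12.9-fold higher against a floor of 3 counts over the hDE libraries (adjusted p = 0.0408). The call ended when any 1 of the 4 libraries was left out, with adjusted p = 0.0743 to 0.146. HOXA3 (chromosome 7, 27106184 to 27152581), the HOX gene of the posterior pouches, had no counts in hDE and 3.89 and 3.10 CPM in hPFE and missed the threshold (adjusted p = 0.0567).

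**Figure D2:**
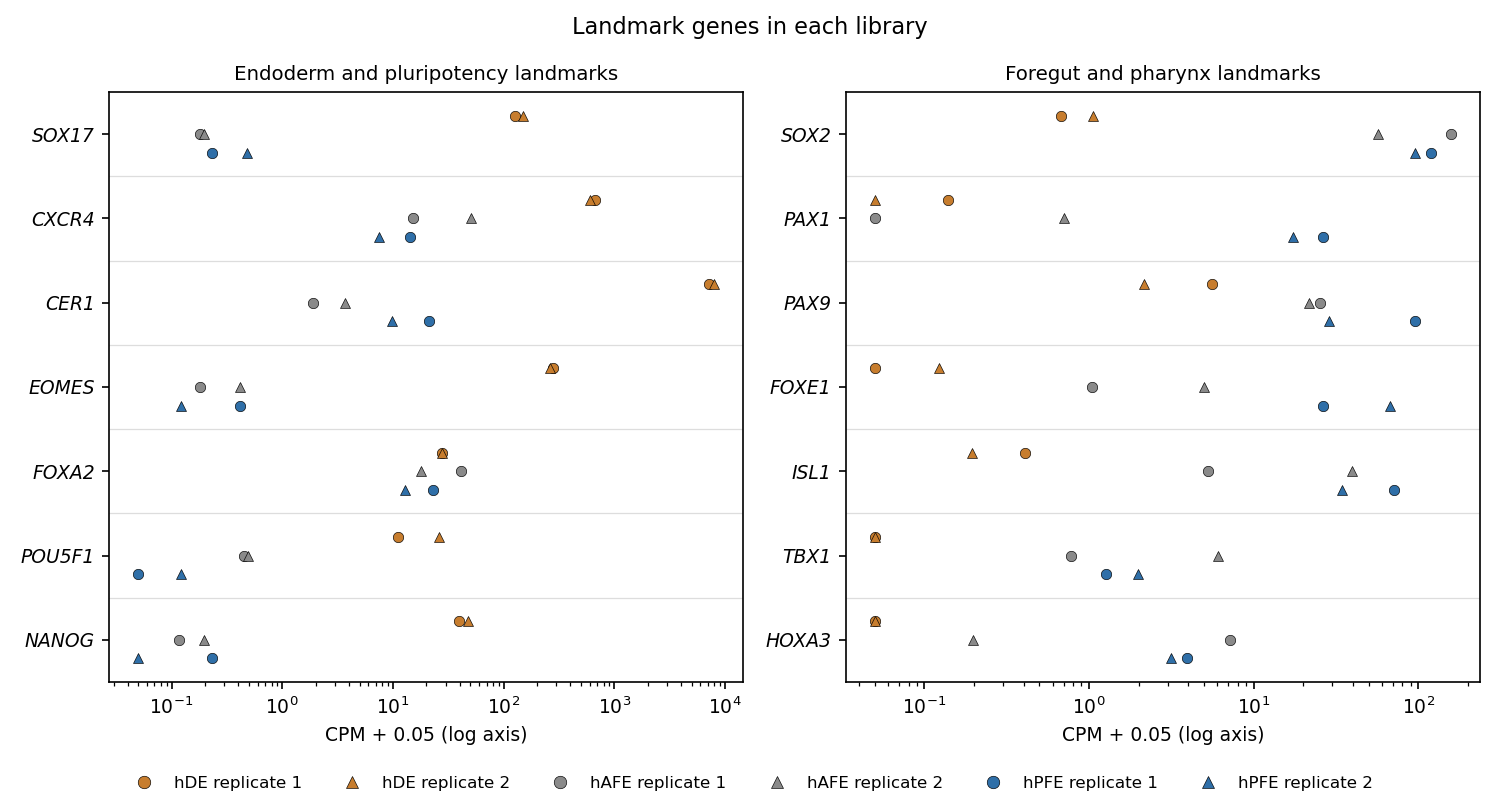
Level of each landmark in the hDE, hAFE and hPFE libraries (CPM + 0.05, log axis), 1 symbol a library, with circles for replicate 1 and triangles for replicate 2. SOX17 and EOMES sit near the left edge in both later stages, while PAX1 and FOXE1 are highest in both hPFE libraries.

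Most genes of the definitive endoderm programme fell, and FOXA1 rose. Of the 18 genes of that list, all tested, 13 fell, 1 rose and 4 did not pass, where 17% and 16.6% of all genes did so, and the list's median log2 fold change was -4.29 beside -0.02 over all genes tested. GSC and LHX1, homeobox genes of the organizer and anterior endoderm, had 1 count each in hPFE. GSC was at 71.6 and 78.9 CPM in hDE, a ratio of 2293 (interval from counting error 411 to 90614, adjusted p = 5.93e-05), and LHX1 at 60.2 and 36.1, a ratio of 1423 (255 to 56263, adjusted p = 7.67e-05). FOXA1, a forkhead factor that rose while FOXA2 did not pass, went from 6.14 and 6.88 CPM to 53.7 and 51.1 (log2 fold change 3.0, SE 0.49, adjusted p = 0.00443). SHISA2, an inhibitor of WNT and FGF receptor maturation, was at 137 and 194 CPM in hDE and 99.9 and 147 in hPFE and did not pass (adjusted p = 0.492). Low levels in bulk RNA can mean fewer cells of a type or less RNA in each cell, and the files do not tell these apart.

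Of the 12 genes of the primitive streak list, 7 of them tested, 6 fell (50% of the list, beside 17% of all genes tested). Another 1 did not pass and 5 were too low to be tested. NODAL, the ligand that drives streak and endoderm formation, was at 246 and 316 CPM in hDE and 0.121 and 0.144 in hPFE (log2 fold change -10.97, SE 0.30, adjusted p = 8.61e-06). FGF17 was at 389 and 378 CPM in hDE and 0.728 and 0.433 in hPFE (log2 fold change -9.32, SE 0.28, adjusted p = 8.61e-06), and FGF8, another streak ligand, at 17.9 and 16.4 CPM in hDE with 1 count in hPFE. WNT3 did not pass, at 16.6 and 12.7 CPM in hDE and 11 and 5.92 in hPFE (adjusted p = 0.121). FOXH1 carries Nodal signals to DNA, and its motif AATCCACA was searched on both strands in the 250 bases before each RefSeq gene start (GRCh38.p14). It was found in 249 of 35116 windows (0.709%), and in 3 of the 9 streak genes with a window, MIXL1, SP5 and MESP2. It was in 0 of the 12 definitive endoderm genes and 0 of the 17 Nodal and activin genes with a window. A gene was counted if any of its windows held the motif, so shares of genes and the share of windows differ in unit. Genes of other lists held it too, among them HOXC4, HOXC5, PTH, BMPR1B and PRRX1. MIXL1 is a homeobox gene of the streak, and SP5 is a zinc finger target of WNT. The windows of these tested members follow because both genes fell, with the match, which lies on the reverse strand, in capitals. The MIXL1 stretch is chr1:226223414-226223617, on the plus strand, cut where GENCODE 29 places the first exon, and the SP5 stretch is chr2:170715087-170715336, on the plus strand.
MIXL1: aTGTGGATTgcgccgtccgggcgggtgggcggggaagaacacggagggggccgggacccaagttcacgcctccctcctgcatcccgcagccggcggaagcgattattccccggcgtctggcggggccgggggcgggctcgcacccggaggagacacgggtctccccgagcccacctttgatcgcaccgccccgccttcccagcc
SP5: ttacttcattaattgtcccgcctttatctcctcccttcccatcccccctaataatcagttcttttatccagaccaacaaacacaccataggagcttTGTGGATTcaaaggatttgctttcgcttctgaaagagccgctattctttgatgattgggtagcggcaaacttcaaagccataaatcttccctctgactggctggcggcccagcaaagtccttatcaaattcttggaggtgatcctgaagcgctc
The match ends 242 bases before the start in MIXL1 and 147 bases before it in SP5. MIXL1 fell from 82.2 and 98.4 CPM to 1.46 and 0.505 (log2 fold change -6.47, SE 0.52, adjusted p = 0.000143). SP5 was low throughout, at 1.42 and 1.09 CPM in hDE with 2 counts in hPFE, a ratio of 18.8 (4.78 to 162, adjusted p = 0.0185), and its call ended without hDE replicate 1, hDE replicate 2 or hPFE replicate 2 (adjusted p = 0.106, 0.0923 and 0.061). A T-box motif, AGGTGTGA, searched in the same way, was in 276 of 35116 windows (0.786%) and in 0 of the 9 streak genes. A match in a window is a description of the sequence, and binding was not measured.

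Nodal ligand and feedback genes fell while an activin subunit rose. Of the 22 genes of the Nodal and activin list, 8 fell (36.4%, beside 17% of all genes) and 3 rose (13.6%, beside 16.6%). A further 10 did not pass and 1 was too low to be tested. Fewer rose without hDE replicate 1, hDE replicate 2 or hPFE replicate 1. LEFTY2 (chromosome 1, 225936598 to 225941489), a secreted Nodal inhibitor, was at 3509 and 3792 CPM in hDE and 4.61 and 4.18 in hPFE (log2 fold change -9.69, SE 0.41, adjusted p = 1.72e-05). LEFTY1, its neighbour and near copy, between which reads could be split, went from 594 and 881 CPM to 0.546 and 0.433 (log2 fold change -10.52, SE 0.60, adjusted p = 4.14e-05). INHBA (chromosome 7, 41667168 to 41705834), which encodes the activin A subunit, went the other way, from 0.089 and 0.217 CPM to 43.3 and 36.2 (log2 fold change 7.89, SE 0.95, adjusted p = 0.000868). It was also above hAFE, at 4.56 and 0.658 CPM (adjusted p = 0.0182). CFC1, a Nodal coreceptor whose reads could be split with a near copy, was at 0.178 and 0.29 CPM in hDE and 20.6 and 4.55 in hPFE (adjusted p = 0.0291), and the call ended without hDE replicate 1, hDE replicate 2 or hPFE replicate 1 (adjusted p = 0.161, 0.158 and 0.0999). The receptor-activated SMAD2, at 406 and 363 CPM in hDE and 178 and 247 in hPFE, did not pass (adjusted p = 0.0842).

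Some targets of the pathway were higher in hPFE than in hAFE, the stage of the same library origin. There 6 of the 21 tested genes were higher and 1 lower, beside 4.77% and 2.71% of all genes, with 7.49% called in either direction. This comparison shares the hPFE libraries with the one against hDE, and 1306 genes passed in it, or 52 when only its own 4 libraries were fitted. SKIL, a feedback repressor of SMAD signalling, was at 289 and 528 CPM in hPFE and 62.2 and 76.0 in hAFE (log2 fold change 2.56, adjusted p = 0.00397), and at 414 and 364 CPM in hDE, from which it did not differ by the test (adjusted p = 0.863). LEFTY2 was at 0.463 and 0.877 CPM in hAFE (adjusted p = 0.0141), and CER1 at 1.85 and 3.66 (adjusted p = 0.0212). The hPFE levels of LEFTY2 and CER1 thus exceeded those of hAFE while lying far below hDE.

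Most pluripotency genes fell between definitive endoderm and the pharyngeal stage, some of them to a few counts. Of the 20 genes of the list, 14 fell (70%, beside 17% of all genes) and 2 rose (10%, beside 16.6%). Another 3 did not pass and 1 was too low to be tested, and the list still summed to 567 and 624 CPM in hPFE. NANOG (chromosome 12, 7787794 to 7799141), a homeobox factor of stem cells, was at 39.2 and 47.1 CPM in hDE with 3 counts in hPFE, a ratio of 440.5 (interval from counting error 150.3 to 2139, adjusted p = 2.08e-05). POU5F1 (chromosome 6, 31164337 to 31180731), which encodes OCT4, was at 10.9 and 25.8 CPM in hDE with 1 count in hPFE, a ratio of 580.2 (104 to 22964, adjusted p = 0.000182). TDGF1, a Nodal coreceptor, fell from 806 and 842 CPM to 1.15 and 4.40 (log2 fold change -8.24, SE 0.53, adjusted p = 5.93e-05). PRDM14, a repressor that guards the stem cell state, fell from 6.23 and 6.16 CPM to no counts, at least 62.6-fold lower (adjusted p = 7.84e-05). Genes with pseudogene copies such as NANOG and POU5F1 can lose reads to those copies in the counting.

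The paired RNA-binding proteins LIN28A and LIN28B parted. LIN28A, which blocks maturation of let-7 microRNAs, was at 1414 and 1454 CPM in hDE, 993 and 1265 in hAFE and 117 and 203 in hPFE (hPFE minus hDE log2 fold change -3.16, SE 0.27, adjusted p = 0.000202; against hAFE adjusted p = 0.00285). LIN28B, its paralog, was at 121 and 105 CPM in hDE and 125 and 101 in hPFE (log2 fold change 0.00, SE 0.17, adjusted p = 0.998). SOX2 was 1 of the 2 list members that rose. SFRP2, a secreted WNT antagonist, was the other, at 0.445 and 0.507 CPM in hDE and 8.01 and 1.52 in hPFE (adjusted p = 0.0351), a call that ended without hDE replicate 1, hDE replicate 2 or hPFE replicate 1 (adjusted p = 0.159, 0.167 and 0.205).

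Several regulators of the pharyngeal pouches rose, while the list as a whole already summed to 63.6 and 57.5 CPM in hDE. Of the 24 genes of the pharyngeal list, 19 of them tested, 12 rose (50% of the list, against 16.6% of all genes tested). Another 1 fell, 6 did not pass and 5 were too low to be tested. Without hDE replicate 1 the number that rose was 7, and it was 7 without hDE replicate 2. FOXE1 (chromosome 9, 97853254 to 97856715), a forkhead factor of the thyroid primordium and pharyngeal floor, had 1 count in hDE and 26.2 and 67.0 CPM in hPFE, a ratio of 1123 (interval from counting error 201 to 44380, adjusted p = 0.000949). It was higher than in hAFE, at 0.991 and 4.97 CPM (adjusted p = 0.0224), as were PAX1 and FGF19. FGF19, a ligand of the pharyngeal endoderm, was low, at 0.267 and 0.507 CPM in hDE, 0.264 and 0.512 in hAFE and 2.37 and 2.45 in hPFE (log2 fold change over hDE 2.58, SE 0.44, adjusted p = 0.00394; against hAFE adjusted p = 0.0158). FGF8 fell, as given above with the streak genes. RIPPLY3, a partner of TBX1, split between the libraries, at 39.8 and 6.93 CPM in hPFE beside 4.90 and 6.30 in hDE, and did not pass (adjusted p = 0.0551). EYA1, a transcriptional coactivator, was at 9.08 and 8.55 CPM in hDE and 12.2 and 26.5 in hPFE (adjusted p = 0.131), below 34.6 and 99.5 in hAFE.

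The wider foregut list moved the same way, with its most anterior members lower. Of its 18 genes, 10 rose (55.6%, beside 16.6% of all genes) and 2 fell (11.1%, beside 17%). Another 5 did not pass and 1, NKX2-1, was too low to be tested. TP63, a factor of stratifying and basal epithelia, had 1 count in hDE and 14.5 and 41.1 CPM in hPFE, a ratio of 668 (interval from counting error 120 to 26412, adjusted p = 0.0021). GRHL2, a guardian of epithelial identity, went from 5.07 and 4.92 CPM to 76.8 and 113 (log2 fold change 4.24, SE 0.22, adjusted p = 2.67e-05). HHEX, a homeobox gene of anterior endoderm, fell from 29.6 and 35.2 CPM to 0.364 and 0.361 (log2 fold change -6.45, SE 0.96, adjusted p = 0.00209). OTX2, a head homeobox gene, fell from 667 and 698 CPM to 6.19 and 30.2 (log2 fold change -5.24, SE 1.30, adjusted p = 0.0179), a call that ended without hDE replicate 1, hDE replicate 2 or hPFE replicate 1 (adjusted p = 0.0597, 0.0671 and 0.0748). The 2 hAFE libraries themselves lay far apart for OTX2, at 17.0 and 333 CPM. KLF5, at 61.8 and 47.4 CPM in hDE and 58.3 and 74.0 in hPFE, did not pass (adjusted p = 0.636).

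Genes of organs that form from the pharynx and foregut were near 0. In hPFE 7 of 15 had no counts, and the summed level of the list was 1.58 and 1.08 CPM, below 5.34 and 10.1 in hDE. PTH, SFTPC, CCL21 and AIRE were among those at 0, which allows up to 0.0989 CPM (3 counts over both libraries), and 11 of the 15 were too low to be tested. The 4 tested, AIRE, SCGB3A2, TSHR and CALCA, all fell (26.7% of the list, beside 17% of all genes), from levels of at most 6.16 CPM. None of these falls passed without hDE replicate 2, and 2 passed without either hDE replicate 1 or hPFE replicate 1.

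HOX genes of the first 4 groups appeared, and more posterior ones were low. HOX genes record position along the body axis, and those of the first groups mark the pharynx and hindbrain. Of the 16 genes of the anterior HOX list, 6 rose (37.5%, beside 16.6% of all genes) and none fell. Another 4 did not pass and 6 were too low to be tested, and 12 of the 16 had no counts in hDE. HOXB2 had no counts in hDE and 6.56 and 6.21 CPM in hPFE, at least 53.4-fold higher (adjusted p = 0.00572). HOXA2 had 1 count in hDE and 9.17 and 4.98 CPM in hPFE, a ratio of 182 (interval from counting error 32.3 to 7206, adjusted p = 0.0059). HOXB4 split between the hPFE libraries, at 24.6 and 2.02 CPM (at least 119-fold, adjusted p = 0.0293), and HOXC4 more so, at 2.49 and 0 (adjusted p = 0.122). HOTAIRM1, a long noncoding RNA of the HOXA cluster, was at 11.7 and 10.8 CPM (at least 93.8-fold, adjusted p = 0.0266). Whether the counting used strand is not stated, so its reads may not be separable from those of genes on the other strand. The calls of HOXB4 and HOTAIRM1 ended without hDE replicate 1 (adjusted p = 0.115 and 0.098), hDE replicate 2 (0.13 and 0.112) or hPFE replicate 1 (0.0941 and 0.0678), that of HOTAIRM1 also without hPFE replicate 2 (0.0601), and that of HOXA2 without hDE replicate 1 (0.0525). The number of risen genes was 1 without hDE replicate 1, 2 without hDE replicate 2 and 3 without hPFE replicate 1. The 2 hAFE libraries lay far apart, with 228 and 14.5 CPM summed over the list beside 92.6 and 48.2 in hPFE. No member passed in hPFE against hAFE.

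The posterior HOX and CDX genes, 23 in all, summed to 1.07 and 1.09 CPM in hDE and 6.98 and 0.65 in hPFE. Only CDX4 could be tested, and it did not pass; 2 genes were called higher without hPFE replicate 2, and 2 higher and 1 lower with no count filter. Among the 8 partners of HOX proteins, 3 rose (37.5%, beside 16.6% of all genes) and 1 fell (12.5%, beside 17%). Another 4 did not pass, and the median log2 fold change was 1.24. More rose without hPFE replicate 2. MEIS2, a homeobox cofactor, was at 1.16 and 0.724 CPM in hDE and 209 and 216 in hPFE (log2 fold change 7.83, SE 0.72, adjusted p = 0.000253). MEIS1 went from 4.01 and 3.19 to 184 and 95.8 CPM (log2 fold change 5.29, SE 0.39, adjusted p = 9.99e-05). PKNOX1 fell by 1.02 on the log2 scale (SE 0.15, adjusted p = 0.00196). PBX2 and MEIS3 did not pass, with adjusted p = 0.243 and 0.147.

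Retinoic acid genes changed on the side of breakdown as well as uptake. Retinoic acid is made by ALDH1A enzymes, broken down by CYP26 enzymes and read by nuclear receptors that bind paired half-sites in DNA. The DR5 retinoic acid response element, direct repeats 5 bases apart, was searched by name on both strands of the same 250-base windows and found in 26 of 35116 (0.074%). Of the 15 genes of the retinoic acid list with a window, counted as genes and not as windows, 2 held it, CYP26A1 and RARB. They are shown as the 2 members that hold the element; CYP26A1 was called lower and RARB was not called, and the genes were not tested against each other. The CYP26A1 stretch is chr10:93073798-93073824 on the plus strand and holds the element on the reverse strand with 5 bases on either side, inside the first exon of 1 of the gene's transcripts in GENCODE 29. The RARB window is chr3:25428013-25428262 on the plus strand, within the gene and outside its exons.
CYP26A1: aaagaTGAACTTTGGGTGAACTaattg
RARB: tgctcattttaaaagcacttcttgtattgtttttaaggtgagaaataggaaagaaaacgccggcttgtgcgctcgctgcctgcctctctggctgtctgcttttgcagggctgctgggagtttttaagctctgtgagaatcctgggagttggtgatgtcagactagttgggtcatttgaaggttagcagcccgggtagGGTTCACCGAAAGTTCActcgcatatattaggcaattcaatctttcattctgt
Capitals mark the element, which lies 90 to 74 bases before the RefSeq start in CYP26A1 and 53 to 37 bases before it in RARB. CYP26A1 was at 1856 and 1609 CPM in hDE and 7.83 and 34.6 in hPFE (log2 fold change -6.36, SE 1.63, adjusted p = 0.02). This call ended without hDE replicate 1, hDE replicate 2 or hPFE replicate 1 (adjusted p = 0.0652, 0.0665 and 0.0871), and the hAFE libraries were 8.13 and 414 CPM. RARB, a receptor, was at 23.3 and 19.1 CPM in hDE and 23.0 and 59.9 in hPFE, so that the groups overlapped, and it did not pass (adjusted p = 0.13). Its hAFE libraries, at 149 and 81.5 CPM, were the highest.

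Of the 18 genes of the retinoic acid list, all tested, 6 rose (33.3%, beside 16.6% of all genes) and 1 fell (5.56%, beside 17%). The other 11 did not pass, and the median log2 fold change was 1.77. Fewer rose without hDE replicate 1 or hDE replicate 2. TGM2 (chromosome 20, 38127387 to 38166578), a crosslinking enzyme induced by retinoic acid in many cells, had 2 counts in hDE and 105 and 165 CPM in hPFE, a ratio of 1657 (interval from counting error 458.5 to 13690, adjusted p = 4.14e-05). In hAFE it was at 0.463 and 0.0731 CPM (hPFE minus hAFE log2 fold change 8.89, adjusted p = 0.00048). STRA6, the retinol uptake receptor, went from 3.20 and 3.55 CPM to 16.6 and 13.1 (log2 fold change 2.13, SE 0.24, adjusted p = 0.000686). CRABP2, which carries retinoic acid to its receptors, went from 11.9 and 9.56 to 82.9 and 61.2 CPM (log2 fold change 2.75, SE 0.54, adjusted p = 0.00678; 0.0641 without hDE replicate 2). DHRS3, a retinal reductase, was at 2.85 and 2.46 CPM in hDE and 8.86 and 22.8 in hPFE (adjusted p = 0.0402), and its call ended without hDE replicate 1, hDE replicate 2 or hPFE replicate 2 (adjusted p = 0.157, 0.188 and 0.17). NRIP1, a corepressor, did not pass (adjusted p = 0.608).

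The hedgehog ligand SHH, 3 receptor genes and the factors GLI1 and GLI3 rose. Of the 14 genes of that list, these 6 rose (42.9%, beside 16.6% of all genes), none fell, 6 did not pass and 2 were too low to be tested. SHH (chromosome 7, 155799986 to 155812273), the ligand of foregut epithelium, was at 7.74 and 11.5 CPM in hDE, 8.72 and 13.7 in hAFE and 167 and 72.7 in hPFE (log2 fold change over hDE 3.63, SE 0.44, adjusted p = 0.000833; against hAFE adjusted p = 0.0062). GLI1, a target and effector of the pathway, was at 0.712 and 1.52 CPM in hDE, 7.93 and 5.63 in hAFE and 25.9 and 17.5 in hPFE (log2 fold change over hDE 4.24, SE 0.40, adjusted p = 0.000284; against hAFE adjusted p = 0.0282). The SHH and GLI1 libraries of hPFE lay above all others. The coreceptors BOC and CDON rose by 4.05 (SE 0.71, adjusted p = 0.00421) and 3.27 (SE 0.53, adjusted p = 0.00305) on the log2 scale. SMO, the signal transducer, was at 59.8 CPM in both hDE libraries and 93.2 and 67.3 in hPFE (adjusted p = 0.0978), and HHIP, an inhibitor, was at 25.4 and 5.12 in hPFE (adjusted p = 0.575). GLI3 and PTCH1 were the other 2 that rose.

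In the BMP list some ligands and antagonists rose, the ID genes rose and BMP2 fell. Of the 20 genes of the list, all tested, 13 rose (65%, beside 16.6% of all genes), 1 fell and 6 did not pass, with a median log2 fold change of 2.83. Without hDE replicate 1 or hDE replicate 2 the number that rose was 8. BMP2 fell from 248 and 235 CPM to 13.9 and 12.6 (log2 fold change -4.19, SE 0.22, adjusted p = 2.67e-05), while BMP5 rose from 0.356 and 0.29 to 17.0 and 11.2 (log2 fold change 5.42, SE 0.65, adjusted p = 0.000809). BMP6 had no counts in hDE and 1.52 and 1.15 CPM in hPFE, at least 11.3-fold higher (adjusted p = 0.00195). The antagonist NOG (chromosome 17, 56593699 to 56595590) had 1 count in hDE and 12 and 8.01 CPM in hPFE, a ratio of 254 (interval from counting error 45.3 to 10076, adjusted p = 0.000253), and exceeded hAFE, at 0.33 and 0.512 CPM (adjusted p = 0.00426). GREM1, another antagonist, was at 0.356 and 0.579 CPM in hDE and 44.4 and 25.5 in hPFE (adjusted p = 0.00795; 0.0701 without hDE replicate 1 and 0.0698 without hDE replicate 2). The 4 ID genes, inhibitors of differentiation that BMP signalling induces, all rose, by 3.21 (ID2) to 5.26 (ID1) on the log2 scale (adjusted p = 0.000864 and 0.00103). BMP7, at 39.6 and 38.5 CPM in hDE and 39.3 and 26.7 in hPFE, and the receptor BMPR2 did not pass (adjusted p = 0.645 and 0.318).

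In the FGF list some ligands rose and others fell. Of its 22 genes, 6 rose (27.3%, beside 16.6% of all genes), 5 fell (22.7%, beside 17%), 8 did not pass and 3 were too low to be tested. FGF20 went from 0.178 and 0.797 CPM to 15.5 and 12.6 (log2 fold change 4.77, SE 0.72, adjusted p = 0.00225) and FGF9 from 0.089 and 0.652 to 12.1 and 6.71 (log2 fold change 4.57, SE 0.80, adjusted p = 0.00433), in contrast to FGF8 and FGF17. SPRY1, a feedback inhibitor, rose from 2.31 and 2.61 CPM to 32.5 and 38.5 (adjusted p = 0.00578; 0.054 without hDE replicate 1 and 0.0543 without hDE replicate 2). DUSP6, a phosphatase induced by ERK signalling, was at 66.9 and 65.8 CPM in hDE and 95.0 and 108 in hPFE and did not pass (adjusted p = 0.162). The receptor FGFR1 did not pass against hDE (adjusted p = 0.35) and was lower than in hAFE, at 84.7 and 49.1 CPM against 200 and 189 (log2 fold change -1.54, adjusted p = 0.0123).

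In the WNT list of 25 genes, 7 rose (28%, beside 16.6% of all genes), 7 fell (28%, beside 17%), 7 did not pass and 4 were too low to be tested; 3 rose without hDE replicate 1 or hDE replicate 2. WNT5A, a ligand of the noncanonical branch, went from 0.89 and 0.29 CPM to 34.6 and 38.0 (log2 fold change 5.98, SE 0.37, adjusted p = 4.74e-05), and WNT5B from 0.356 and 0.507 to 27.9 and 16.7 (log2 fold change 5.64, SE 0.55, adjusted p = 0.000338). LEF1, a DNA-binding partner of beta-catenin, went from 0.267 and 0.0724 to 10.7 and 13.6 CPM (log2 fold change 6.16, SE 0.65, adjusted p = 0.000465). SFRP1, a secreted antagonist, fell from 749 and 647 to 68.1 and 72.9 CPM (log2 fold change -3.31, SE 0.20, adjusted p = 4.56e-05). RSPO3, which amplifies WNT signals, was at 1.64 and 25.3 CPM in hPFE (adjusted p = 0.0101; 0.079 without hDE replicate 1 and 0.0807 without hDE replicate 2). FRZB, another antagonist, was at 37.5 CPM in hPFE replicate 1 and 0.433 in replicate 2 (adjusted p = 0.864).

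Ligands, receptors and targets of Notch were among the genes that rose. Of the 15 genes of the list, 7 rose (46.7%, beside 16.6% of all genes), 1 fell, 6 did not pass and 1 was too low to be tested. Fewer rose without hDE replicate 1, hDE replicate 2 or hPFE replicate 1. JAG1 (chromosome 20, 10637684 to 10673999), a ligand, was at 3.74 and 10.9 CPM in hDE, 36.4 and 59.5 in hAFE and 290 and 136 in hPFE (log2 fold change over hDE 4.84, SE 0.57, adjusted p = 0.000756; against hAFE adjusted p = 0.0408). The targets HES1 and HEY1 rose by 5.10 (SE 0.35, adjusted p = 7.67e-05) and 5.03 (SE 0.73, adjusted p = 0.00193), and HEY2 by 2.36 (SE 0.40, adjusted p = 0.00359) on the log2 scale. DLL4, a ligand of vessels, fell from 1.42 and 2.90 CPM to 0.304 and 0.361 (adjusted p = 0.0151; 0.158 without hDE replicate 2 and 0.067 without hPFE replicate 1). NOTCH2, a receptor at 230 and 208 CPM in hDE and 275 and 214 in hPFE, did not pass against hDE (adjusted p = 0.454).

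**Figure D3:**
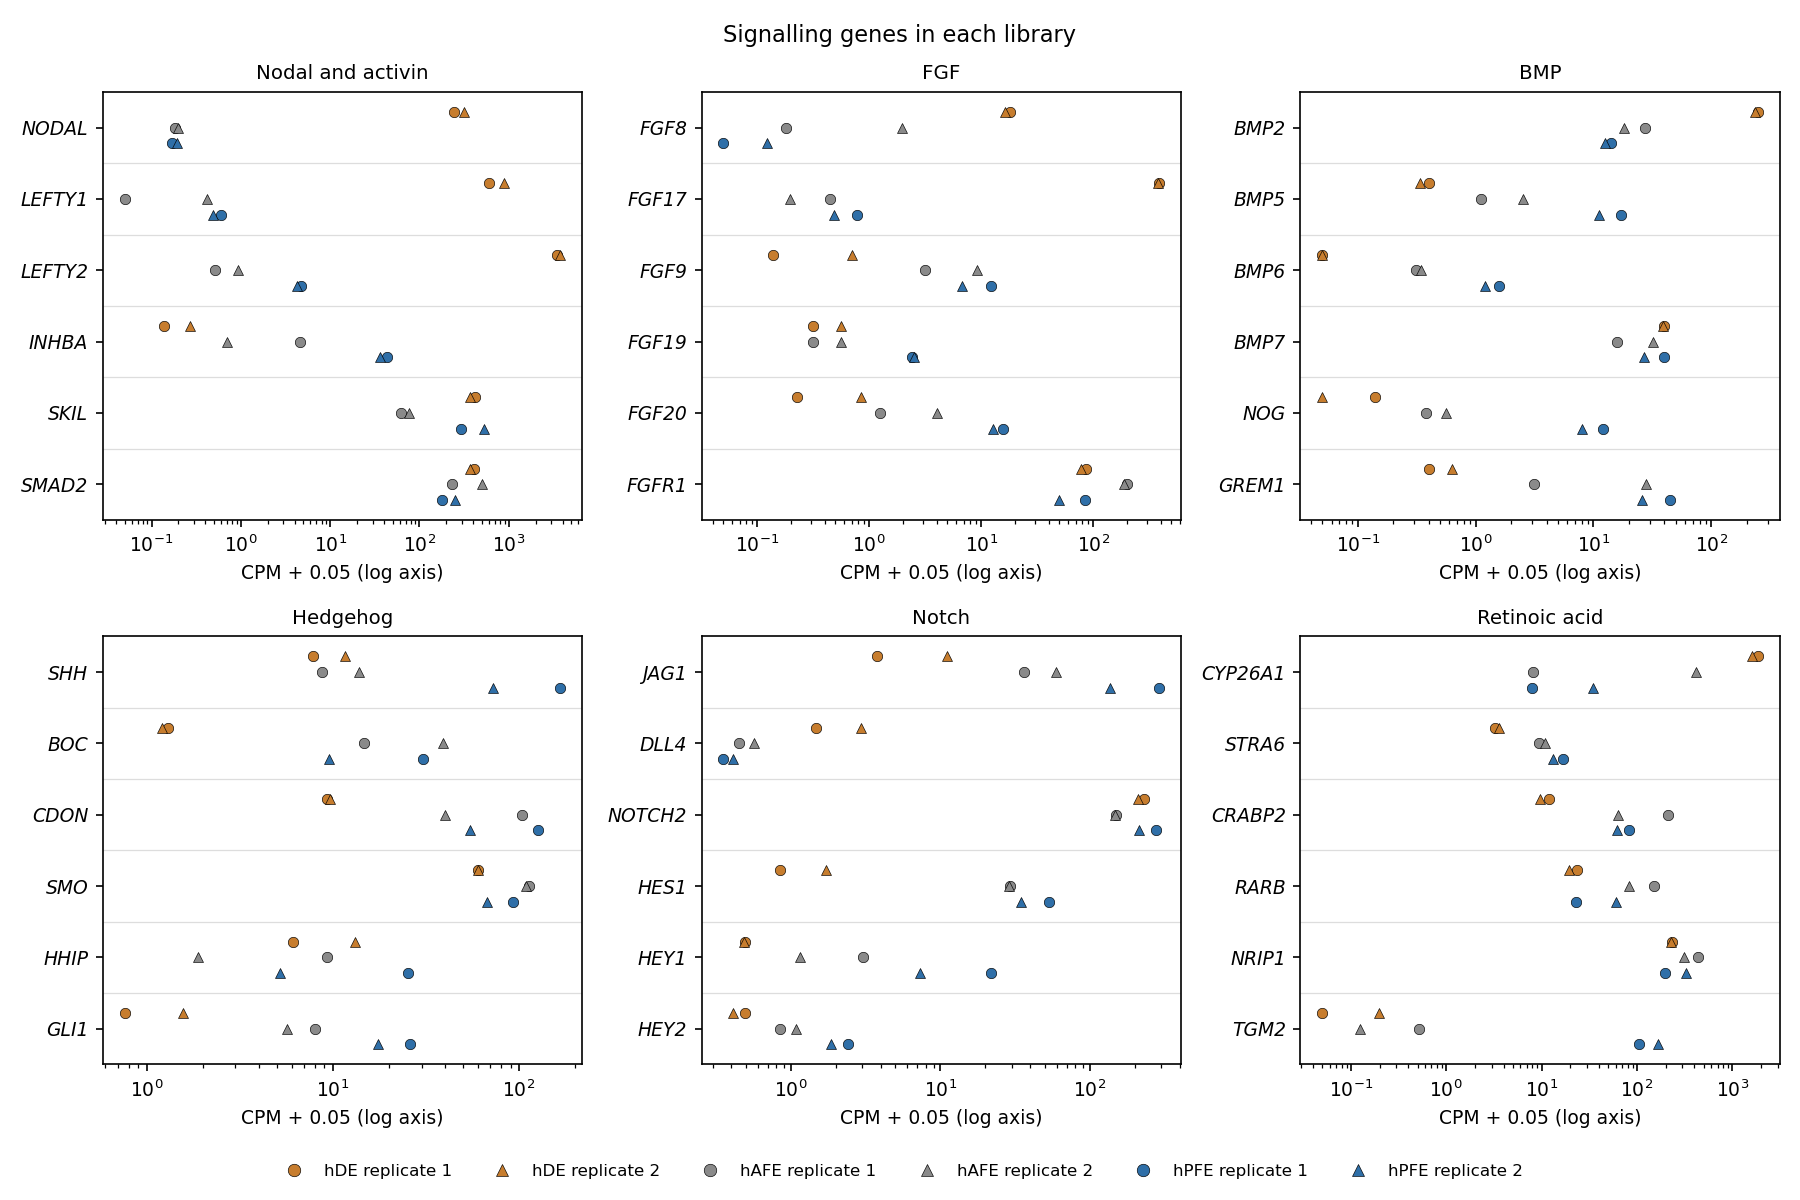
Level of 6 genes from each of 6 pathways in the hDE, hAFE and hPFE libraries (CPM + 0.05, log axis), 1 symbol a library. NODAL, FGF17, BMP2 and CYP26A1 lie far to the right in hDE, whereas INHBA, FGF20, NOG, SHH, JAG1 and TGM2 are highest in both hPFE libraries.

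The RNA of E-cadherin rose and that of N-cadherin fell, with N-cadherin still the higher by CPM in both hPFE libraries. CDH1, which encodes E-cadherin, went from 27.1 and 28.0 CPM to 222 and 285 (log2 fold change 3.20, SE 0.19, adjusted p = 4.14e-05), and CDH3 from 57.0 and 65.2 to 250 and 276 (log2 fold change 2.11, SE 0.15, adjusted p = 9.88e-05). CDH2, which encodes N-cadherin, fell from 925 and 867 CPM to 317 and 420 (log2 fold change -1.28, SE 0.16, adjusted p = 0.00102). CLDN4, a tight junction protein, was at 0 and 0.435 CPM in hDE, 21.6 and 38.2 in hAFE and 109 and 107 in hPFE (log2 fold change over hDE 8.78, SE 0.57, adjusted p = 6e-05; against hAFE adjusted p = 0.0217). CDH1 and CDH3 were also higher than in hAFE (adjusted p = 0.01 and 0.0274). KRT7, a simple-epithelium keratin, had 3 counts in hDE and 12.4 and 162 CPM in hPFE, a ratio of 673 (interval from counting error 230.2 to 3268, adjusted p = 0.00355), with the libraries over 10-fold apart. The abundant keratins KRT8 and KRT18 did not pass (adjusted p = 0.244 and 0.574). In all, 6 of the 23 genes of the list rose (26.1%, beside 16.6% of all genes) and 1 fell (4.35%, beside 17%). Another 13 did not pass and 3 were too low to be tested, and the list's median log2 fold change was 0.04. More fell without hPFE replicate 2.

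Fibronectin and 7 other genes of the matrix list rose. FN1 (chromosome 2, 215360440 to 215436172) was at 315 and 281 CPM in hDE, 278 and 366 in hAFE and 5743 and 11643 in hPFE (log2 fold change over hDE 4.87, SE 0.37, adjusted p = 0.000111; against hAFE 4.75, adjusted p = 0.00134). FBN2, a microfibril protein, also stood highest in hPFE, at 58.7 and 41.1, 69.5 and 43.9, and 553 and 575 CPM (log2 fold change over hDE 3.50, SE 0.27, adjusted p = 0.000121; against hAFE adjusted p = 0.00142). LAMC1, a laminin chain, rose by 1.71 (SE 0.16, adjusted p = 0.000243) and NID1, a basement membrane linker, by 3.67 (SE 0.30, adjusted p = 0.000162) on the log2 scale. Of the 17 genes of the list, all tested, 8 rose, none fell and 9 did not pass, where 16.6% and 17% of all genes rose and fell, with a median log2 fold change of 0.78. COL4A1 and SPARC, already abundant in hDE, did not pass there (adjusted p = 0.0881 and 0.10), and both were higher than in hAFE (adjusted p = 0.00426 and 0.00105).

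FN1 also headed the genes called at least 4-fold higher when ranked by deposited TPM, a level per transcript length, at 1346 ± 931 TPM (SD, n = 2) in hPFE and 19.6 ± 2.08 in hDE. VCAN, a matrix proteoglycan, followed at 265 ± 71.4 TPM, then MDM2, the p53 ligase, at 169 ± 162, IGFBP5, an IGF-binding protein, at 152 ± 129 and COL2A1, a fibrillar collagen, at 149.5 ± 48.0. The large SDs of MDM2 and IGFBP5 reflect hPFE replicate 2, with 1247 CPM of MDM2 beside 329 in replicate 1, and 1740 CPM of IGFBP5 beside 631. The MDM2 call ended without hDE replicate 1 or hDE replicate 2 (adjusted p = 0.0924 and 0.0914) and that of IGFBP5 without hDE replicate 2 (adjusted p = 0.0745). Among genes at least 4-fold lower, those with the highest TPM in hDE were CER1 (2313 ± 231), TAGLN, an actin-binding protein (707 ± 18.9), LEFTY2 (590.5 ± 48.0), NPPB, a natriuretic peptide (425 ± 48.3), and CYP26A1 (371 ± 26.7).

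The largest rises by fitted log2 fold change, among genes at 10 CPM or more, were CEACAM6, SLC5A7, GRHL3, H19, CPA4 and SPTSSB. CEACAM6, a surface glycoprotein of epithelia, GRHL3, an epidermal grainyhead factor, and SPTSSB, a subunit of the enzyme that starts sphingolipid synthesis, had no counts in hDE and stood at 27.3 and 15.2, 18.2 and 17.0, and 18.4 and 11.6 CPM in hPFE. They were at least 182-fold, 147-fold and 128-fold higher (adjusted p = 0.00543, 8.06e-05 and 0.000238). H19, an imprinted long noncoding RNA, had 3 counts in hDE and 343.5 and 173 CPM in hPFE, a ratio of 2217 (interval from counting error 758 to 10754, adjusted p = 0.0019). SLC5A7, the choline transporter, was at 35.6 CPM in hPFE replicate 1 and 1.59 in replicate 2, and CPA4, a carboxypeptidase, at 1.82 and 29.2. Both of these calls ended without hDE replicate 1 (adjusted p = 0.0618 and 0.0757) or hDE replicate 2 (adjusted p = 0.0706 and 0.0849). The largest falls were AC104257.1, KCNK12, SLC5A9, C13orf42, LINC02413 and AC078993.1. KCNK12, a potassium channel subunit, went from 77.4 and 62.3 CPM to no counts, at least 698.5-fold lower (adjusted p = 7.67e-05), and SLC5A9, a sugar transporter, from 275 and 209 CPM to 1 count, a ratio of 7246 (1300 to 286240, adjusted p = 1.82e-05).

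Genes with no counts in 1 of these stages and at least 10 CPM in the other were few. With no counts in either hDE library and at least 10 CPM in both hPFE libraries there were 4, CEACAM6, GRHL3, SPTSSB and HOTAIRM1. In the opposite direction there were 9, of which 3 code for protein, KCNK12, C13orf42 and NCR1, a receptor of natural killer cells that was at 15.3 and 17.2 CPM in hDE. Of these 9, AL356488.2 is uncertain, since the deposited posterior SD of its count was 1.08 of the count over the 4 libraries. It was at 14.9 and 12.8 CPM in hAFE. None of the 4 genes at 0 in hDE was at 0 in hAFE, where SPTSSB was at 12.7 and 7.31 CPM and HOTAIRM1 at 55.5 and 3.73. SPTSSB was also at 13.5 and 11.6 CPM in hESC. By class, 18.3% of 14467 protein-coding genes rose and 17.9% fell, beside 11% and 14.2% of 727 lincRNAs and 2.56% and 12.5% of 351 processed pseudogenes.

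Markers of other cell types were present in hPFE, unevenly between its libraries. In the mesenchyme list of 12 genes, 6 rose (50%, beside 16.6% of all genes) and 1 fell (8.33%, beside 17%). Another 2 did not pass and 3 were too low to be tested. The list's summed level was 2008 in both hDE libraries and 2014 and 596 CPM in hPFE. COL3A1 (chromosome 2, 188974320 to 189012746), a fibrillar collagen, was at 0.712 and 1.74 CPM in hDE and 1232 and 29.7 in hPFE (adjusted p = 0.00743; 0.0688 without hDE replicate 1 and 0.0652 without hDE replicate 2). HAND2, a factor of lateral mesoderm and pharyngeal arch mesenchyme, was at 38.8 and 0.794 CPM in hPFE with 3 counts in hDE (adjusted p = 0.0207), a call that ended without hDE replicate 1, hDE replicate 2 or hPFE replicate 1 (adjusted p = 0.113, 0.142 and 0.156). LUM, a proteoglycan, was high in the other library, at 11.4 and 87.4 CPM (adjusted p = 0.00529; 0.0544 without hDE replicate 1 and 0.0589 without hDE replicate 2). POSTN, absent from hDE, was at 16.6 and 4.11 CPM (at least 91.1-fold, adjusted p = 0.00485), and ACTA2, smooth muscle actin, rose from 0.623 and 0.579 to 126 and 27.1 CPM (log2 fold change 6.98, SE 1.04, adjusted p = 0.00206). TAGLN, which made up nearly all of the hDE sum at 1980 and 1984 CPM, fell to 354 and 300 (log2 fold change -2.60, SE 0.32, adjusted p = 0.000926). No mesenchyme marker was at 0 in hPFE. The part of such cells in the rise of the matrix genes was not tested.

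Other marker lists were lower in level. The surface ectoderm list summed to 16.5 and 22.4 CPM in hDE and 63.4 and 85.0 in hPFE. Of its 11 genes, 7 of them tested, 5 were higher (45.5%, beside 16.6% of all genes), and fewer without hDE replicate 1 or hDE replicate 2. None was lower, beside 17% of all genes, and KRT14 was at 0. The amnion and trophoblast list summed to 8.72 and 7.46 CPM in hDE and 29.7 and 189 in hPFE, where KRT7 made up most of the second value. Of its 11 genes, 9 of them tested, 5 were higher (45.5%, beside 16.6% of all genes) and none lower. CGB5 and HLA-G were at 0 in hPFE. Neural genes summed to 157 and 175 CPM in hDE and 297 and 231 in hPFE. MAP2, a microtubule protein of neurons, was at 1.34 and 3.40 CPM in hDE and 167 and 107 in hPFE (log2 fold change 5.82, SE 0.39, adjusted p = 7.23e-05). Its rise was larger than that of the sum, and the list's median log2 fold change was -0.11. Of the 11 neural genes, 7 of them tested, 2 were higher (18.2% of the list, beside 16.6% of all genes) and none lower. Fewer were higher and some were lower without hPFE replicate 1. Neural crest genes summed to 62.1 and 70.7 and to 109 and 135 CPM, with SOX10, FOXD3 and TFAP2B at 0 in hPFE. Of the 9 genes, 6 of them tested, 2 were higher and 2 lower (22.2% each, beside 16.6% and 17% of all genes). Fewer were lower without any 1 of the 4 libraries. SOX10, a defining crest factor, fell from 5.96 and 9.99 CPM (at least 82.8-fold, adjusted p = 0.000285). Cardiac and lateral mesoderm genes summed to 213 and 186 CPM in hDE and 67.2 and 19.3 in hPFE. MYL7, an atrial myosin chain, made up most of the hDE sum and went from 196 and 177 to 2.73 and 12.2 CPM (log2 fold change -4.66, SE 0.57, adjusted p = 0.000885). Of the 10 genes, 6 of them tested, 3 were higher (30%, beside 16.6% of all genes), HAND2, NKX2-5 and TNNT2. MYL7 and MYL4 were lower (20%, beside 17%), and the list's median log2 fold change was 0.48. The rises did not hold without hDE replicate 1 or hDE replicate 2. Paraxial mesoderm genes summed to 1.07 and 1.01 and to 13.8 and 14.2 CPM, most of it MEOX1, whose call ended when any 1 of the 4 libraries was left out (adjusted p = 0.0372, then 0.068 to 0.196). Liver, pancreas and hindgut genes summed to 38.2 and 37.1 and to 30.8 and 13.5 CPM, with VIL1, a brush-border protein, at 30.7 and 31.0 CPM in hDE and 2.67 in both hPFE libraries (log2 fold change -3.53, SE 0.33, adjusted p = 0.000285). Endothelial and blood genes summed to 21.5 and 19.6 and to 13.1 and 31.2 CPM, and extraembryonic endoderm genes to 24.7 and 30.3 and to 36.5 and 31.9, with 1 of 11 and 1 of 9 higher and 1 of 11 and 2 of 9 lower, beside 16.6% and 17% of all genes. Neither endothelial call held without hDE replicate 1 or hDE replicate 2, and 1 extraembryonic gene was lower without hDE replicate 2.

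**Figure D4:**
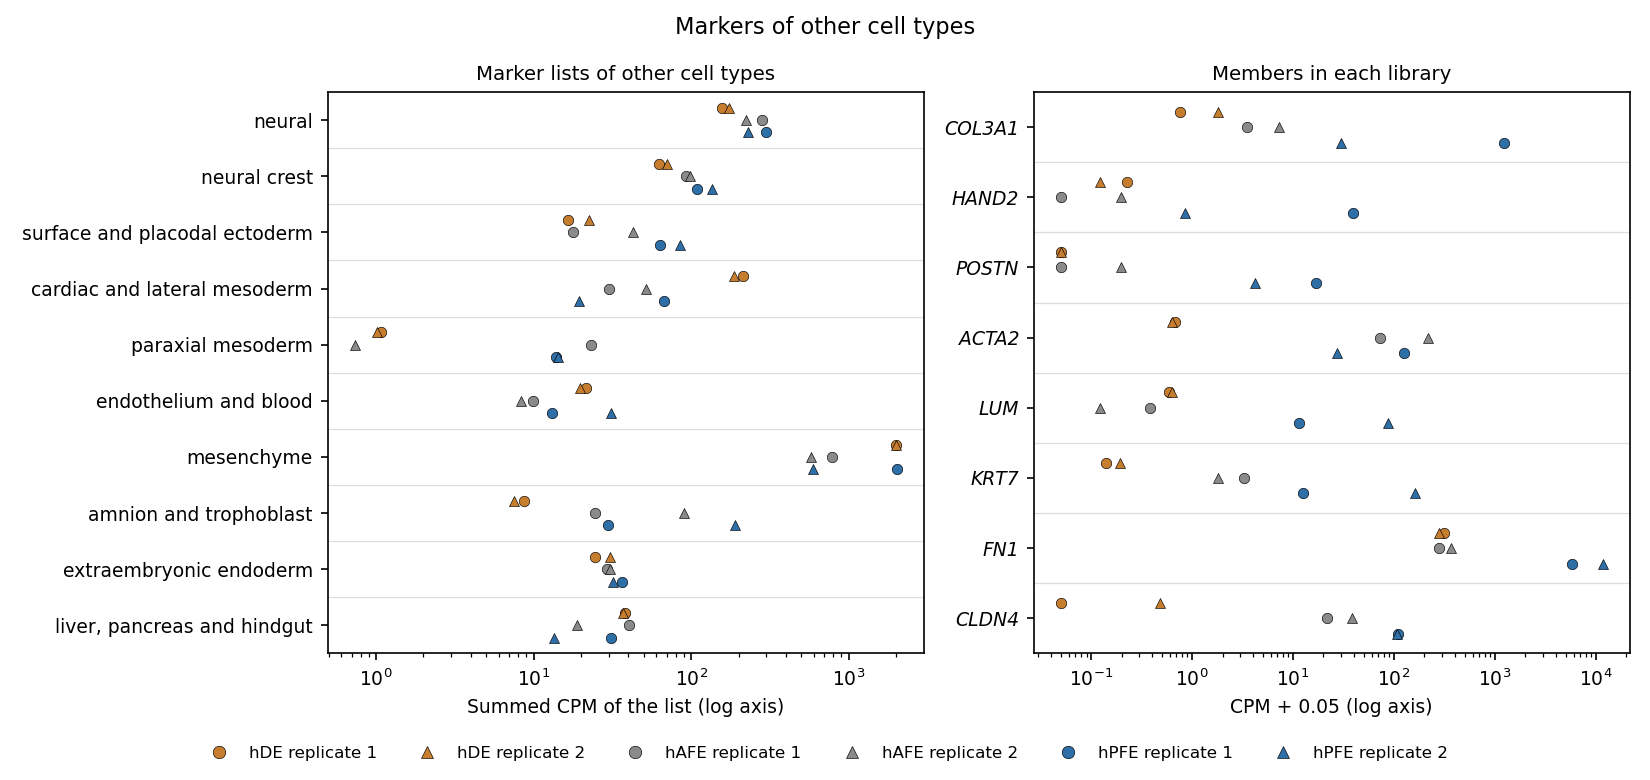
Left, summed level of each marker list of another cell type in the hDE, hAFE and hPFE libraries (CPM, log axis). Right, 8 genes in the same libraries (CPM + 0.05, log axis). COL3A1 and HAND2 are over 10-fold higher in hPFE replicate 1 than in replicate 2, KRT7 is over 10-fold higher in replicate 2, and CLDN4 is alike in both.

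Most stress response genes and some hypoxia genes fell in hPFE. Of the 15 genes of the integrated stress response list, all tested, 12 fell (80%, beside 17% of all genes), none rose and 3 did not pass. The list's median log2 fold change was -1.42, and fewer fell without hDE replicate 1, hDE replicate 2 or hPFE replicate 1. With a minimum of 2 fold 3 fell, and on either unscaled TPM scale 2 fell. CHAC1, a glutathione-degrading enzyme, fell from 94.4 and 102 CPM to 13.6 and 20.7 (log2 fold change -2.52, SE 0.44, adjusted p = 0.00424), and HSPA5, the main chaperone of the endoplasmic reticulum, from 394 and 321 to 116 and 88.1 (log2 fold change -1.81, SE 0.17, adjusted p = 0.000306). ATF3, a stress-induced factor, split, at 55.4 and 195 CPM in hPFE beside 105 and 104 in hDE (adjusted p = 0.787). Of the 14 genes of the glycolysis and hypoxia list, 6 fell (42.9%, beside 17% of all genes) and 2 rose (14.3%, beside 16.6%). Another 5 did not pass and 1 was too low to be tested. ADM, a hypoxia-induced peptide, fell from 108 and 110 CPM to 4.80 and 8.66 (log2 fold change -4.02, SE 0.35, adjusted p = 0.00021), and EGLN3, an oxygen sensor, from 46.4 and 44.1 to 2.67 and 3.25 (log2 fold change -3.93, SE 0.33, adjusted p = 0.000176). SLC2A1, a glucose transporter, rose from 23.4 and 26.4 to 59.0 and 68.6 CPM (log2 fold change 1.36, SE 0.16, adjusted p = 0.000726), while SLC2A3, at 4833 and 4019 in hDE and 883 and 2224 in hPFE, did not pass (adjusted p = 0.134). Of 21 proliferation genes, 3 rose and 2 fell (14.3% and 9.52%, beside 16.6% and 17% of all genes). The number that rose was 1 without hDE replicate 2 and 7 without hPFE replicate 2, and the number that fell was 5 without hPFE replicate 1 and 1 without any other library. Of 18 cholesterol synthesis genes, 5 rose (27.8%, beside 16.6% of all genes) and 1 fell (5.56%, beside 17%). Without hDE replicate 1 or hDE replicate 2 fewer rose and the fall did not hold, nor did it hold without hPFE replicate 1. Of 13 mitochondrial messengers 2 fell (15.4%, near the 17% of all genes) and none rose. None fell with only the 4 libraries or with voom. Neither fall held without hDE replicate 1, hDE replicate 2 or hPFE replicate 1, and more genes fell without hPFE replicate 2.

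**Figure D5:**
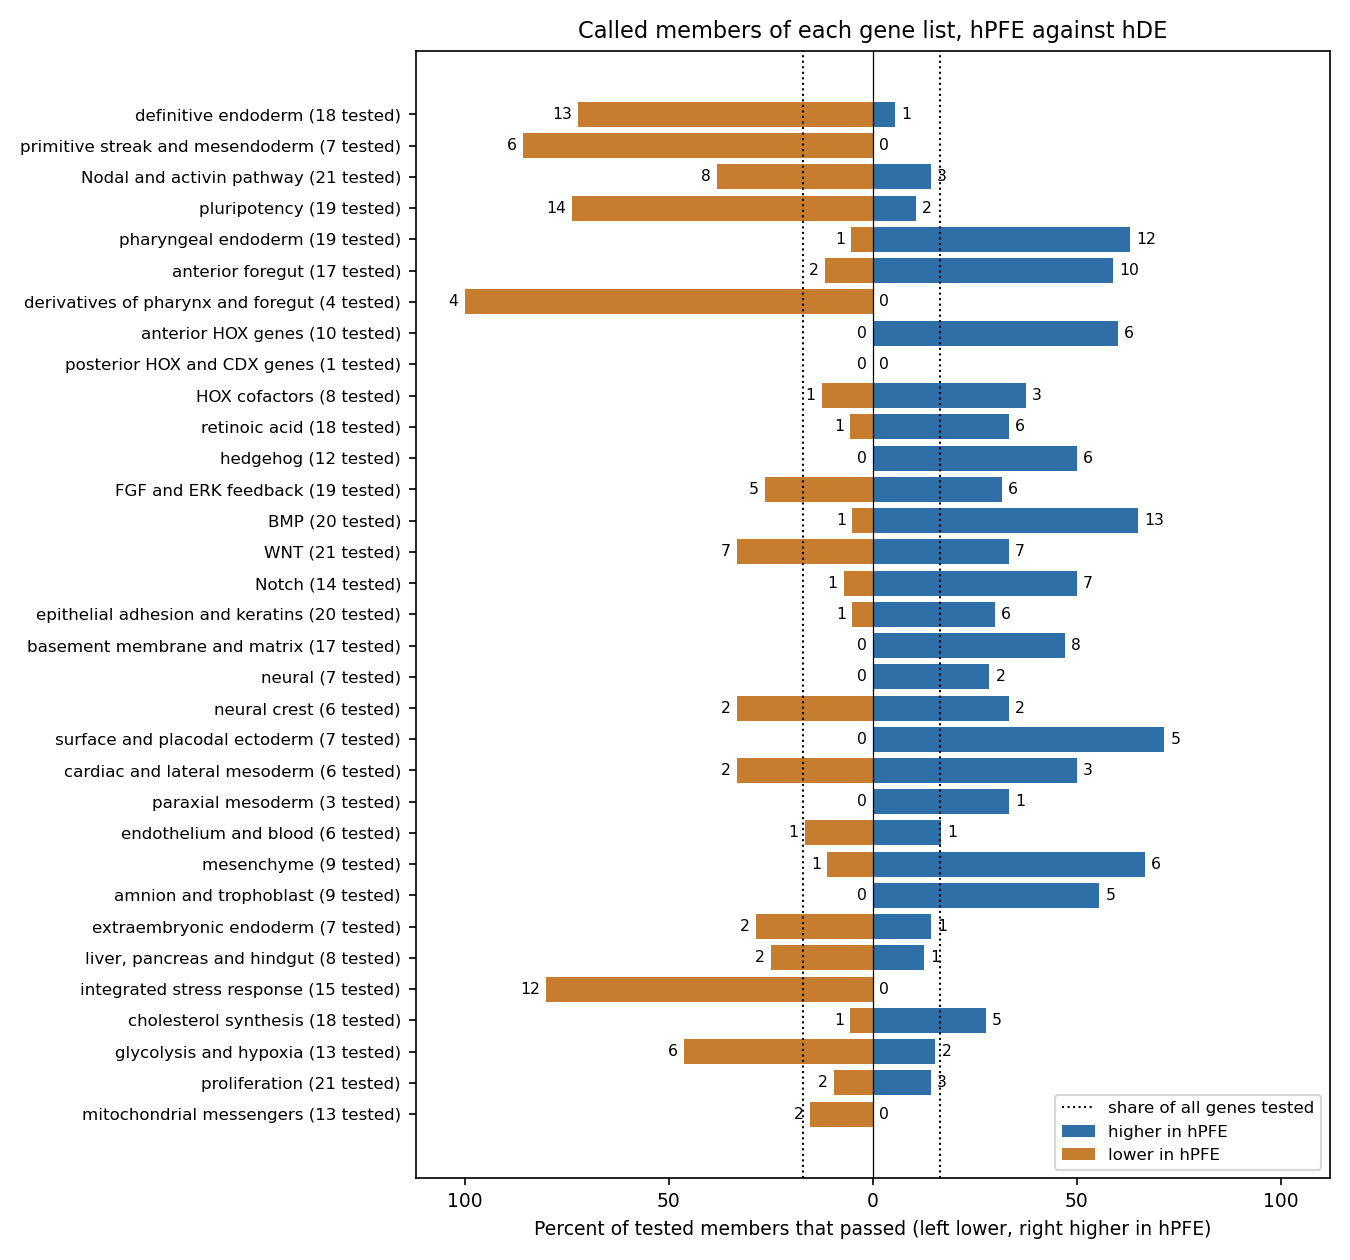
Percent of the tested members of each gene list that fell (left) or rose (right) in hPFE against hDE, with the number of genes at the end of each bar and dotted lines at the share of all genes tested. Bars reach far left for definitive endoderm, streak, pluripotency and stress response genes, and far right for pharyngeal, foregut, anterior HOX, BMP, surface ectoderm and mesenchyme genes; members too low to be tested are left out of the bars.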

How the data were processed

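The 8 libraries were made from total RNA depleted of ribosomal RNA, with dUTP marking of strand and paired-end sequencing, per the labels' protocols. The deposited tables hold gene-level RSEM values on hg38, per the submitters' processing notes; DESeq2 is named there too, without versions, and an aligner is not given in those notes or the labels. Expected counts, as deposited, are estimates in which ambiguous reads are divided among genes. TPM, as deposited, is scaled by effective length and to a common total. The deposited effective lengths (other columns) and posterior standard deviations of the counts (other columns) served in an alternative and as a check per gene. All 58780 gene identifiers matched GENCODE 29, which gave symbols and hg38 positions. Spike-in (97) and tRNA (649) rows held no counts.

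Expected counts were rounded, filtered with filterByExpr and fitted with edgeR 4.0.16 (TMM, quasi-likelihood test, Benjamini-Hochberg adjustment, threshold 0.05) over all 8 libraries with 4 stage terms in R 4.3.3, leaving 17446 genes and 4 residual degrees of freedom. The fit shares 1 spread across stages. The SE is the absolute log2 fold change over the square root of the F statistic. Mitochondrial ribosomal RNA took 10.6% to 14.2% of hDE and 14.3% to 18.4% of hPFE counts, and 7SL RNA 11.4% to 11.7% and 3.76% to 7.33%. A total of 0 allows 3 counts over the libraries of a stage, 0.12 CPM in hDE and 0.0989 in hPFE; intervals (95%, exact binomial) and floors cover counting error only. Close copies and overlapping genes may share reads. The step was tested on simulated data.

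The members, the 33 gene lists and the rules were chosen with earlier results of these data known. Named genes are 14 landmarks, the 6 largest rises and falls at 10 CPM or more, the 5 most abundant risen and fallen genes by TPM, and, for every list described, at most 4 called genes, 2 that moved against them and 2 abundant genes that did not pass. MIXL1, LIN28A, the ID genes, PTCH1, GLI3, NCR1, NKX2-1 and the genes listed at 0 were chosen after their values were seen. A few genes that the rule names are not reported here. Of the same-numbered hDE and hPFE libraries the deviations correlated at -0.03, so the numbers do not pair them. Alternatives were RLE scaling, DESeq2 1.42.0, 2 other count filters, the compared libraries alone, a replicate block, effective length offsets, limma 3.58.1 on log2(TPM + 1) and log2(TPM + 0.1), a minimum of 2 fold, voom with a weight per stage, leaving out structural and mitochondrial genes, and leaving out each library. TMM-scaled TPM was added after seeing the data. With a library left out, the lone one of its stage is assumed to vary like the others.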

Additional observations from a re-analysis of the deposited data

How the results depend on the processing

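Of 5867 calls in hPFE against hDE (2904 higher, 2963 lower), unscaled log2(TPM + 0.1) gave 10867 (10124 and 743) and log2(TPM + 1) gave 10284 (9597 and 687), with the median of all genes up by 1.01 and 0.68. A minimum of 2 fold gave 2033 (1153 and 880). Leaving out 1 library gave 2630 to 5761 calls, 1357 to 2916 higher and 1273 to 2845 lower. The other settings run lay within 1.5 times, from 4940 (TMM-scaled TPM) to 6866 (no filter). Of 1306 calls in hPFE against hAFE (833 higher, 473 lower), the TPM scales gave 805 (86 lower) at 0.1 and 812 (86 lower) at 1, TMM-scaled TPM 285 lower, a minimum of 2 fold 193 (165 and 28), no filter 3234 (1923 and 1311), the 4 libraries compared 52 (46 and 6) and voom 447 (360 and 87), and leaving out 1 library 1140 to 1552. The log2 fold changes of PBX2 (0.99 and 0.91), FGFR1 (1.01 and 0.96) and COL4A1 (0.87 and 0.85), below 0 in the count fit, were above 0 on both unscaled TPM scales. With a replicate block, 5493 and 1072 genes were called; deviations of same-numbered libraries correlated at -0.03 (hDE and hPFE) and 0.06 (hAFE and hPFE), so the numbers do not pair them. The causes were not tested. Depth limits genes under about 1 CPM, where 3 counts over a stage come to 0.12 CPM in hDE.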

Other observations

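A few genes that p53 is known to induce were higher in hPFE; they were picked after their values were seen, come from no fixed list and say nothing of other such genes. CDKN1A, an inhibitor of the cell cycle, was at 2.85 and 2.03 CPM in hDE and 127 and 285 in hPFE (log2 fold change 6.41, SE 0.49, adjusted p = 0.000119), and it was also higher than in hAFE (log2 fold change 2.29, adjusted p = 0.0154). FAS, a death receptor, was at 0.178 and 0.362 CPM in hDE and 8.07 and 32.2 in hPFE (log2 fold change 6.13, SE 0.86, adjusted p = 0.0016). ZMAT3, a zinc finger protein, rose by 2.51 (SE 0.33, adjusted p = 0.00126) and EDA2R, a receptor of the TNF family, by 3.16 (SE 0.41, adjusted p = 0.00119) on the log2 scale. MDM2, induced by the same factor, is described above; its call ended without hDE replicate 1 or hDE replicate 2 (adjusted p = 0.0924 and 0.0914). These 5 genes were higher in hPFE replicate 2 than in hPFE replicate 1.

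The hPFE libraries parted in other genes as well. COL6A3 and COL5A2, collagen chains, were at 75.5 and 308 CPM in replicate 1 and at 1.44 and 22.3 in replicate 2, and ZEB2, a regulator of mesenchymal identity, at 47.0 and 4.91. In the other direction, IGFBP3, an IGF-binding protein, was at 88.6 CPM in replicate 1 and 396 in replicate 2, PTGS2, a prostaglandin synthase, at 2.00 and 35.1, and CDKN2B, a cell cycle inhibitor, at 40.2 and 234. No cause was tested.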
